A study of Homo sapiens with 6 samples.

Results

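The nuclear-encoded subunits of respiratory complexes II to V were examined in HCT116, an established human colorectal carcinoma cell line, after knockdown of the long noncoding RNA GMDS-AS1. The members were 41 genes taken by symbol from the 60662 genes with a value, namely 4 of complex II (SDH), 9 of complex III (UQCR and CYC1), 12 of complex IV (COX and NDUFA4) and 16 of complex V (ATP5). HCT116 cells carrying a control short hairpin RNA (shCtrl, labelled WT) were compared with HCT116 cells carrying GMDS-AS1 shRNA2 (labelled GMDS-AS1 knockdown, here KD). The cells of each group were stably transduced with a puromycin-selectable lentiviral plasmid, and poly-A RNA was sequenced from 3 libraries per group, which the labels call biological replicates. The KD group rests on 1 hairpin in 1 cell line, and whether each group is a pool or a clone is not given in the sources used here. All values are TPM, an expression unit in which reads are divided by transcript length and by the library total.

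These complexes sit in the inner mitochondrial membrane. Complex II oxidizes succinate and feeds electrons to ubiquinone, complex III passes them to cytochrome c, and complex IV hands them to oxygen. Complex V uses the proton gradient so built to make ATP. Apart from complex II, which is wholly nuclear-encoded, each combines imported nuclear subunits with a smaller part that is encoded in the mitochondrial genome.

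Read totals cannot be had from TPM, so depth is unknown and no counting interval was computed. The TPM of the 6 libraries summed to between 991058 and 992992, and mitochondrial genome transcripts held 15.2% to 16.6% of it. Across genes, themselves no independent replicates, Pearson's r of log2(TPM + 1) was 0.987 to 0.988 within groups and 0.975 to 0.976 between them. GMDS-AS1, listed as GMDS-DT, was at 1.66, 2.21 and 1.34 TPM in shCtrl and at 0.88, 0.91 and 0.79 TPM in KD. The groups did not overlap, and the log2 fold change was -0.41 ± 0.14 (SE, n = 3 per group, limma adjusted p = 0.0407), a call that was lost in 7 of 13 alternative settings. Of the defining markers, the epithelial genes EPCAM, KRT8, KRT18, KRT19 and CDH1 were all expressed, with group means from 27.9 to 4426 TPM, while PTPRC, CD3E, CD14, PECAM1, VWF and CDH5 stayed at or under 0.53 TPM in every library. The epithelial markers moved with the groups: KRT8 went from 4426 ± 122 to 1358 ± 29 TPM (SD, n = 3; log2 fold change -1.46, limma adjusted p = 1.73e-07), KRT18 from 2972 ± 73 to 702 ± 12 TPM (-1.83, adjusted p = 7.22e-08) and KRT19 from 1769 ± 56 to 1242 ± 27 TPM (-0.26, adjusted p = 0.00016). EPCAM (0.18, adjusted p = 0.0758) and CDH1 (0.12, adjusted p = 0.391) were not called. Of the fibroblast genes, COL1A1 was at means of 13.6 and 10.5 TPM, and COL3A1 and DCN reached at most 0.16 TPM.

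The great majority of the subunit genes were higher in KD than in shCtrl. Their summed level was 12764, 12759.5 and 12574 TPM in shCtrl and 16808, 16931 and 17034 TPM in KD. The groups did not overlap, and the ratio of the mean sums was 1.33. After scaling by a trimmed mean, limma on log2(scaled TPM + 1) called 39 of the 41 genes higher and 1 lower (NDUFA4), and left 1 uncalled (SDHC). Among all 16901 genes tested, 28.5% were called higher and 25.9% lower. At least a 2-fold rise was called for 6 members (SDHB, SDHD, UQCR10, COX7B, ATP5PB and ATP5MC3) against 2.93% of all genes, and at least a 2-fold fall for NDUFA4 against 4.24%. In bulk RNA, a change in the RNA of each cell and a change in the mix of cells cannot be told apart, and the part of the lower keratin levels in these values was not tested.

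**Figure D1:**
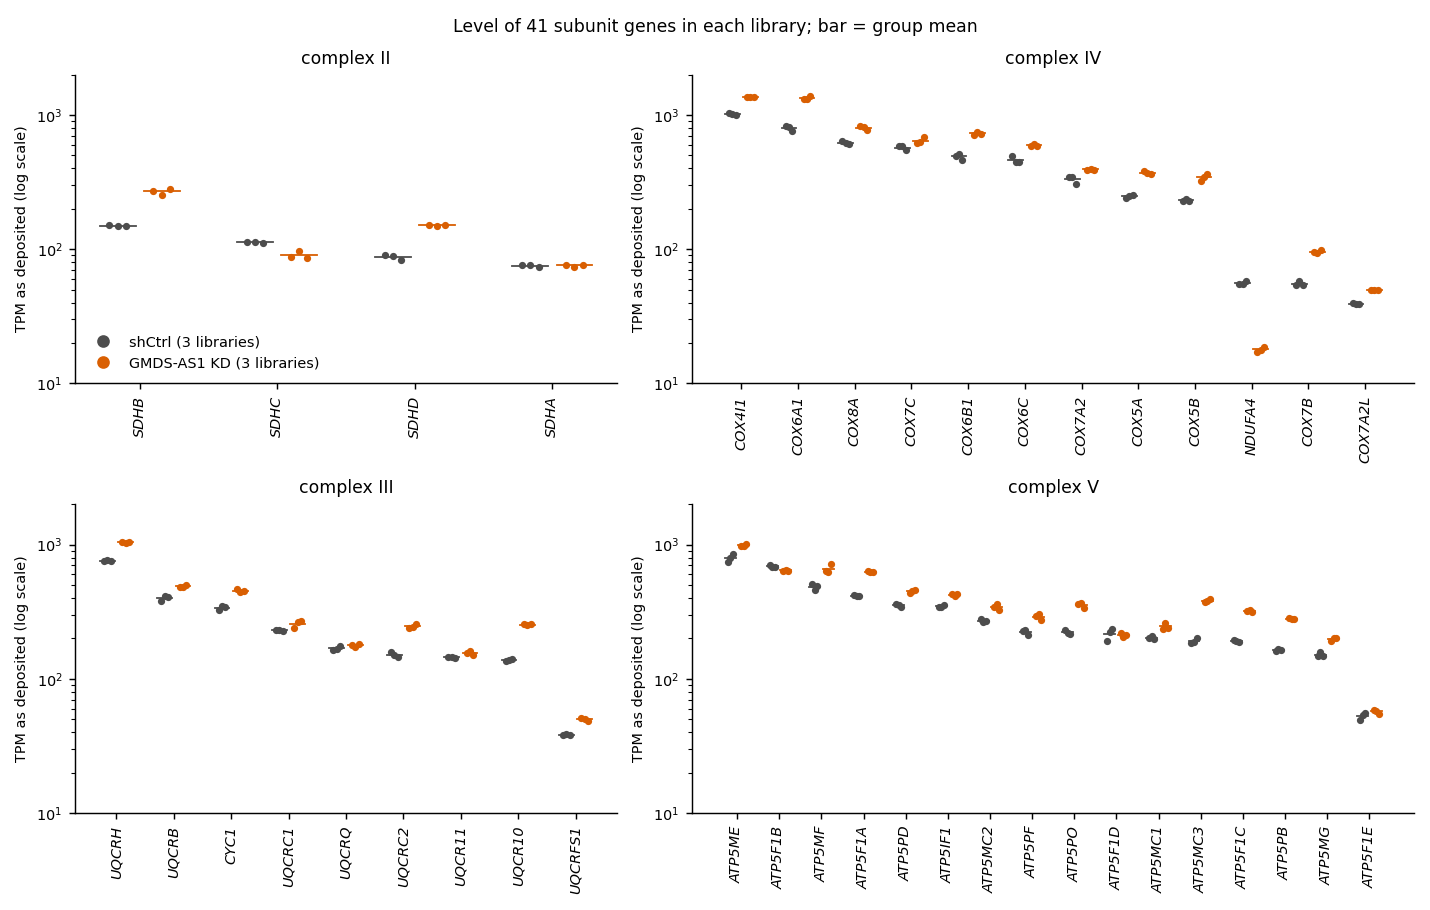
TPM as deposited (log axis) of each member in the 3 shCtrl (grey) and 3 KD (orange) libraries, by complex and ordered by the shCtrl mean; bars are group means. In 34 of the 41 genes all orange points lie above all grey points; NDUFA4 (55.8 to 17.9 TPM), SDHC and ATP5F1B show the opposite order.

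The members are abundant genes, and abundant genes as a group were higher in KD. Of the 1120 genes with a mean of at least 100 TPM, a limit chosen after seeing the data, 69.1% were called higher, and their median log2 fold change was 0.32. The median of the members was 0.62, where the median of all genes tested was -0.0020. Of 249 protein-coding genes with both a mean of at least 100 TPM and an annotated transcript of at most 1000 bases, 79.5% were called higher with a median of 0.42. The 16 members within that class were all called higher, with a median of 0.64. The part of abundance and length in the members' values was not tested.

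The size of the rise depended on the scaling between libraries. The trimmed mean factors were lower in KD than in shCtrl by a log2 difference of -0.25, so that without scaling the median of all genes stood at -0.20. With TPM as deposited, 34 members were called higher, against 16.3% of all genes, and 3 lower (NDUFA4, SDHC and ATP5F1B), against 40.3%. The members' median was then 0.38, which lay 0.57 above the median of all genes, against 0.62 above it with scaling. As raw TPM, all 3 KD libraries stood above all 3 shCtrl libraries in 34 members, against 18.8% of all genes, and below them in 3 members, against 44.9%. In the remaining 4 members (SDHA, UQCRQ, ATP5F1D and ATP5F1E) the groups overlapped.

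**Figure D2:**
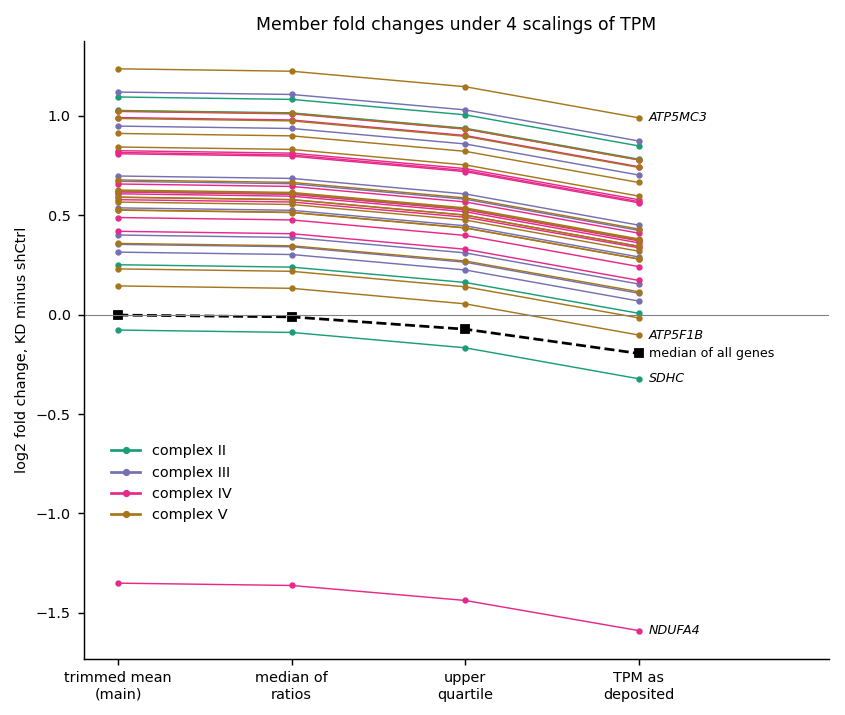
Log2 fold change of each member (lines, coloured by complex) under the trimmed mean, median-of-ratios and upper-quartile scalings and with TPM as deposited; the black dashed line is the median of all genes. All lines shift down together, and the median of all genes ends at -0.20 with TPM as deposited.

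The complexes differed little from each other in their typical member. The median log2 fold change was 0.64 in complex II, 0.62 in complex III, 0.64 in complex IV and 0.61 in complex V. By library, the median displacement of the members from their shCtrl mean ranged from 0.63 to 0.65 in complex II, from 0.56 to 0.66 in complex III, from 0.61 to 0.67 in complex IV and from 0.58 to 0.66 in complex V of the 3 KD libraries. These ranges overlap. The ratio of summed TPM was 1.381, 1.318, 1.367 and 1.302 in the same order, and no test between complexes was made, since the members are a chosen list.

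Within the complexes the members were spread out. The log2 fold changes ran from -0.08 to 1.10 in complex II, from 0.31 to 1.12 in complex III, from -1.35 to 1.02 in complex IV and from 0.14 to 1.24 in complex V. Their SD between genes was 0.58, 0.27, 0.62 and 0.29. For complex IV without NDUFA4 the range was 0.42 to 1.02 and the SD 0.20, so that the wide range of complex IV lay with that gene, while in complex II it divided the 4 subunits in pairs.

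**Figure D3:**
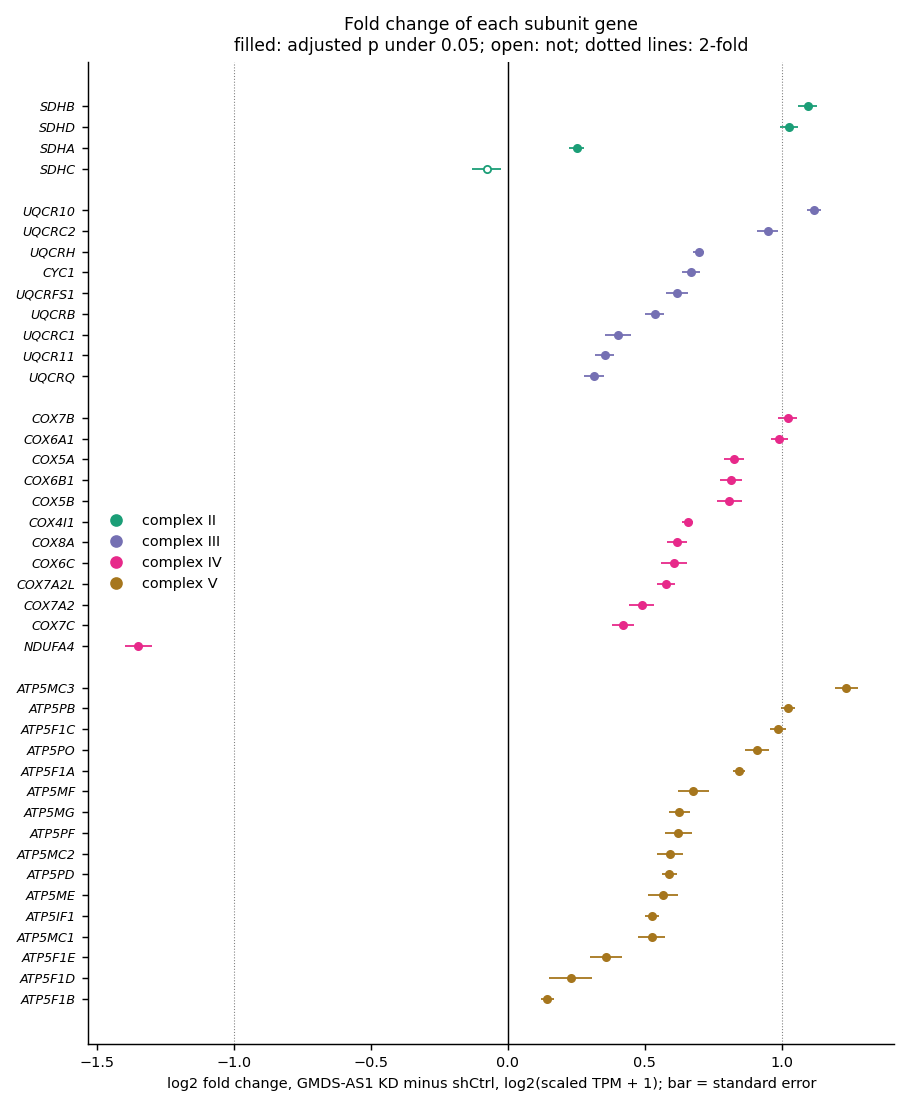
Log2 fold change (KD minus shCtrl) of each of the 41 genes with its standard error, grouped by complex; filled points had an adjusted p under 0.05. All but NDUFA4 at -1.35 and SDHC at -0.08 lie to the right of 0.

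In complex II, the iron-sulfur subunit and the smaller membrane anchor rose, while the other anchor did not. SDHB, which carries electrons through its iron-sulfur clusters, was at 151, 148 and 148 TPM in shCtrl and at 272, 255 and 282 TPM in KD. The log2 fold change was 1.10 ± 0.03 (SE, n = 3 per group, limma adjusted p = 1.34e-06). SDHD, a membrane anchor that helps bind ubiquinone, was at 90.1, 88.1 and 83.0 TPM in shCtrl and at 152, 148 and 151 TPM in KD. Its log2 fold change was 1.03 ± 0.03 (adjusted p = 1.41e-06), and neither gene had overlapping groups.

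SDHC, the partner anchor of SDHD, moved the other way in raw TPM. It was at 113, 114 and 111 TPM in shCtrl and at 87.6, 96.2 and 85.4 TPM in KD, with every KD library below every shCtrl library. That order held for 44.9% of all genes tested. After scaling the log2 fold change was -0.08 ± 0.05 (limma adjusted p = 0.267). It was called lower with TPM as deposited (-0.32, adjusted p = 0.00124), with upper-quartile scaling (-0.17, adjusted p = 0.0441) and without KD replicate 2 (-0.13, adjusted p = 0.0205). With TPM as deposited 40.3% of all genes were called lower. SDHC then stood at percentile 39.5 of the log2 fold changes of all genes.

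SDHA, the flavoprotein that holds the succinate site, was flat in raw TPM, at 76.7, 75.7 and 73.7 in shCtrl and 76.3, 74.1 and 76.8 in KD. The groups overlapped, and the log2 fold change of 0.25 ± 0.03 (limma adjusted p = 0.000314) fell to 0.01 (adjusted p = 0.866) with TPM as deposited. SDHA shares sequence with the copies SDHAP1, SDHAP2 and SDHAP3, which together held 27.9% of the TPM of gene and copies in shCtrl and 27.0% in KD, so its level is uncertain.

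Ratios of 2 genes inside a library do not depend on any scaling between libraries. The ratio of SDHC to SDHB was 0.747, 0.768 and 0.746 in shCtrl and 0.323, 0.378 and 0.303 in KD. The ratio of SDHA to SDHB went from a mean of 0.506 ± 0.007 (SD, n = 3) to 0.281 ± 0.009. The ratio of SDHD to SDHB overlapped between groups, at 0.584 ± 0.021 and 0.559 ± 0.023. The 4 transcripts of complex II thus stood in other proportions in KD, with SDHB and SDHD keeping near to each other.

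**Figure D4:**
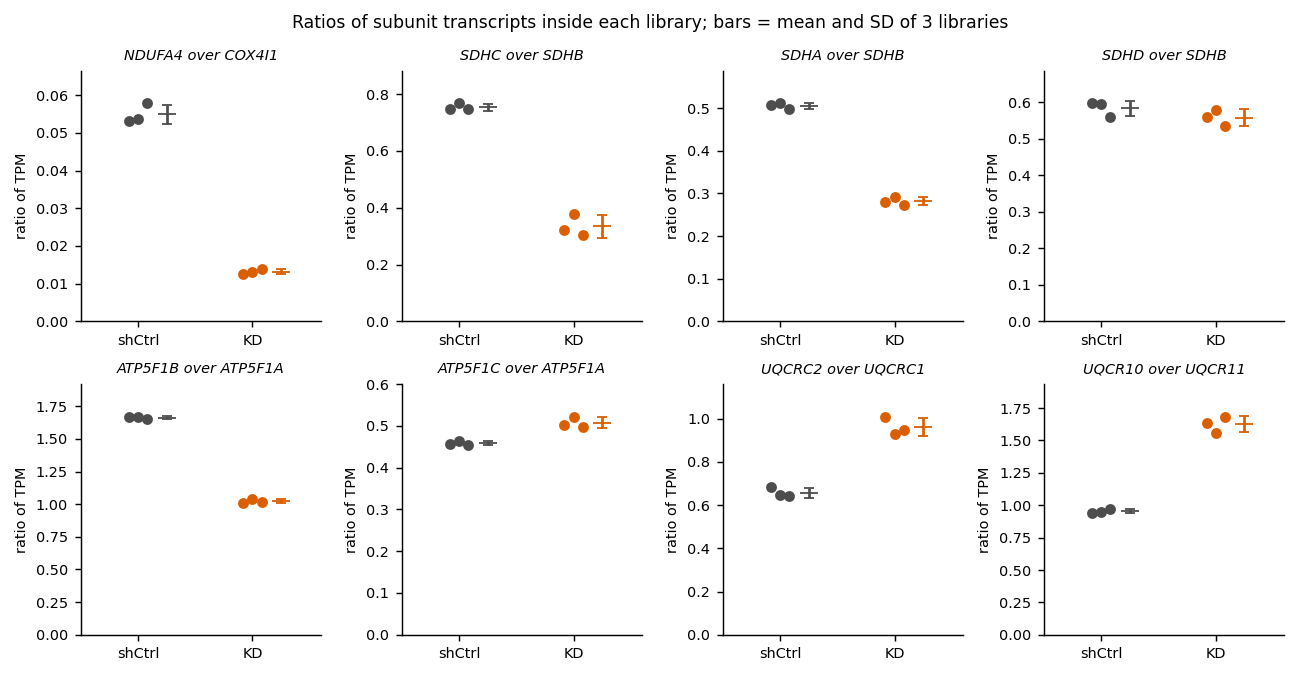
Ratio of TPM of 2 subunit genes inside each library (points), with mean and SD of 3 libraries per group, on axes that start at 0. Of the 8 ratios plotted, the groups overlap for SDHD over SDHB alone; NDUFA4 over COX4I1 falls from 0.0549 to 0.0132.

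All 9 genes of complex III were called higher. UQCR10, a small subunit near the cytochrome c1 and iron-sulfur proteins, was at 137, 137 and 139.5 TPM in shCtrl and at 255, 250.5 and 255 TPM in KD. Its log2 fold change was 1.12 ± 0.03 (SE, n = 3 per group, limma adjusted p = 5.6e-07), the largest of the complex. UQCRC2, a core protein on the matrix side, rose from 159, 149 and 145 TPM to 240.3, 245 and 254 TPM (0.95 ± 0.04, adjusted p = 2.79e-06). UQCRH, the hinge protein that assists the contact with cytochrome c, was the most abundant gene of the complex, with 757, 769 and 759 TPM in shCtrl and 1043, 1038 and 1043 TPM in KD (0.70 ± 0.02, adjusted p = 1.04e-06).

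The Rieske iron-sulfur protein gene UQCRFS1 was the least abundant of complex III. It was at 38.0, 38.6 and 38.0 TPM in shCtrl and at 50.9, 50.5 and 48.2 TPM in KD (0.62 ± 0.04, limma adjusted p = 2.36e-05). CYC1, the cytochrome c1 gene, had a log2 fold change of 0.67, and UQCRB, a ubiquinone-binding subunit, one of 0.54. The smallest changes were those of UQCRC1 (0.40), UQCR11 (0.35) and UQCRQ (0.31), and UQCRQ lost its call with TPM as deposited (0.07, adjusted p = 0.140).

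UQCRC1 and UQCRC2 encode the core proteins that together form the large matrix domain of the complex, and the proportion of their transcripts changed. The ratio of UQCRC2 to UQCRC1 was 0.681, 0.645 and 0.640 in shCtrl and 1.01, 0.926 and 0.948 in KD, so that the levels came nearer to each other. The ratio of UQCR10 to UQCR11 rose likewise from 0.953 ± 0.014 (SD, n = 3) to 1.63 ± 0.06. Neither ratio overlapped between groups.

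In complex IV, 11 of 12 genes were called higher and NDUFA4 was called lower. NDUFA4 was first counted as a subunit of complex I and is now placed in complex IV. It was at 55.0, 54.8 and 57.6 TPM in shCtrl and at 17.2, 17.8 and 18.7 TPM in KD, a ratio of means of 0.320. The log2 fold change was -1.35 ± 0.05 (SE, n = 3 per group, limma adjusted p = 2.23e-06), which ranged from -1.59 to -1.32 over 14 alternatives with every adjusted p at or below 0.000127. It stood at percentile 1.65 of the log2 fold changes of all genes tested, whereas the next lowest member, SDHC, stood at percentile 43.7.

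NDUFA4 also fell as a ratio to other subunits of the complex inside each library. Its ratio to COX4I1 was 0.0532, 0.0535 and 0.0578 in shCtrl and 0.0127, 0.0131 and 0.0138 in KD. Its ratio to COX7A2L went from 1.42 ± 0.05 (SD, n = 3) to 0.358 ± 0.016, so that NDUFA4 passed from the more abundant to the less abundant of the pair. NDUFA4 lies at chr7:10931951-10940256 on the minus strand of GRCh38 (GENCODE v29), and its exons overlap those of no other annotated gene. Of its relatives, both added to the lists after seeing the data, NDUFA4L2 was called lower (1.74 to 0.833 TPM, log2 fold change -0.45, adjusted p = 0.0136) and C15orf48 was too low to test, at means of 0.623 and 0.120 TPM.

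COX7B and COX6A1, both small peripheral subunits, rose most. COX7B was at 54.4, 57.9 and 53.8 TPM in shCtrl and at 95.1, 94.2 and 97.8 TPM in KD (1.02 ± 0.03, limma adjusted p = 1.83e-06). COX6A1 was at 832, 815 and 760.1 TPM in shCtrl and at 1324, 1326 and 1383 TPM in KD (0.99 ± 0.03, adjusted p = 1.52e-06). COX4I1, which takes part in the regulation of the enzyme by ATP, was the most abundant of all 41 genes, with 1033, 1023 and 997 TPM in shCtrl and 1355, 1352 and 1349.9 TPM in KD (0.66 ± 0.02, adjusted p = 1.25e-06).

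COX7A2L, which tethers complex III to complex IV in supercomplexes, had the lowest shCtrl level of the complex. It was at 39.6, 39.3 and 39.0 TPM in shCtrl and at 49.99, 49.84 and 49.85 TPM in KD (0.58 ± 0.03, limma adjusted p = 1.23e-05). Its ratio to its paralog COX7A2 overlapped between groups, at 0.119 ± 0.008 (SD, n = 3) and 0.127 ± 0.002. The other genes had log2 fold changes of 0.82 (COX5A), 0.82 (COX6B1), 0.81 (COX5B), 0.62 (COX8A), 0.61 (COX6C), 0.49 (COX7A2) and 0.42 (COX7C). The tissue-restricted forms COX4I2, COX6A2 and COX7B2 were listed at 0 in every library, COX7A1 reached 0.23 TPM and COX8C 0.72 TPM, and COX6B2, the only one tested, was not called (1.46 and 1.89 TPM, adjusted p = 0.0852).

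All 16 genes of complex V were called higher after scaling, but the catalytic head split. ATP5F1A encodes the alpha and ATP5F1B the beta subunit of the head, which alternate around the central stalk. ATP5F1A was at 424, 411 and 412 TPM in shCtrl and at 634, 623 and 631 TPM in KD (0.84 ± 0.02, limma adjusted p = 7.96e-07). ATP5F1B was at 709, 685 and 681 TPM in shCtrl and at 642, 649 and 641 TPM in KD. All KD libraries of ATP5F1B were below all shCtrl libraries, and its log2 fold change of 0.14 ± 0.02 (adjusted p = 0.00248) turned to -0.10 (adjusted p = 0.00858) with TPM as deposited. That lower value stood at percentile 57.8 of the log2 fold changes of all genes in the same setting.

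The change of proportion between alpha and beta does not depend on scaling. The ratio of ATP5F1B to ATP5F1A was 1.67, 1.67 and 1.65 in shCtrl and 1.01, 1.04 and 1.02 in KD. The gamma subunit gene of the stalk, ATP5F1C, rose with ATP5F1A, from 194, 191 and 188 TPM to 318, 325 and 314 TPM (0.99 ± 0.03, limma adjusted p = 1.14e-06). The delta and epsilon subunit genes of the same stalk, ATP5F1D and ATP5F1E, were nearer to ATP5F1B. Their ratios to ATP5F1A went from 0.520 ± 0.063 (SD, n = 3) to 0.338 ± 0.008 and from 0.127 ± 0.010 to 0.0910 ± 0.0031, with no overlap.

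ATP5F1D had the weakest call of the complex. It was at 191, 223 and 235 TPM in shCtrl and at 220.2, 206 and 212 TPM in KD, and the groups overlapped. The log2 fold change was 0.23 ± 0.08 (limma adjusted p = 0.0434), and it was not called in 12 of 14 alternatives. ATP5F1E, the least abundant gene of complex V, was at 49.2, 53.9 and 55.3 TPM in shCtrl and at 59.0, 57.6 and 55.1 TPM in KD (0.36 ± 0.06, adjusted p = 0.00199), and it lost its call with TPM as deposited (0.12, adjusted p = 0.109).

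The peripheral stalk, which holds the head still, was higher throughout. ATP5PB, its b subunit, was at 161, 166 and 163 TPM in shCtrl and at 286, 278 and 279 TPM in KD (1.03 ± 0.03, limma adjusted p = 7.08e-07). ATP5PO, the oligomycin sensitivity-conferring protein, had a log2 fold change of 0.91, ATP5PF of 0.62 and ATP5PD of 0.59. Of the membrane subunits, ATP5MF had 0.68, ATP5MG 0.63 and ATP5ME 0.57, and ATP5ME was the most abundant gene of the complex, with 739, 792 and 851 TPM in shCtrl and 973, 985 and 1009.9 TPM in KD. ATP5IF1, the inhibitor that blocks ATP hydrolysis by the enzyme, had 0.53 (adjusted p = 7.39e-06), and its ratio to ATP5F1B went from 0.504 ± 0.016 (SD, n = 3) to 0.657 ± 0.013.

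The ring of the proton channel is made of a c subunit that 3 genes encode with the same mature protein. ATP5MC3 was at 186, 187 and 201 TPM in shCtrl and at 376, 378 and 392 TPM in KD, the largest rise among the 41 genes (1.24 ± 0.04, limma adjusted p = 1.83e-06). ATP5MC1 went from 199.9, 208 and 199 TPM to 237, 262 and 238 TPM (0.53 ± 0.05, adjusted p = 0.000142). ATP5MC2 went from 279, 263 and 271 TPM to 343, 362 and 328 TPM (0.59 ± 0.05, adjusted p = 7.02e-05).

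The composition of the c subunit transcripts shifted toward ATP5MC3. Its share of the 3 was 28.01%, 28.48% and 30.02% in shCtrl and 39.3%, 37.7% and 40.9% in KD. ATP5MC2, the largest share in shCtrl at 40.8% ± 1.0 (SD, n = 3), was at 35.4% ± 1.0 in KD, and ATP5MC1 went from 30.4% ± 1.0 to 25.3% ± 0.8. The summed level of the 3 genes went from 665 ± 6 to 972 ± 26 TPM, so ATP5MC1 and ATP5MC2 lost share while their own levels were higher.

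Genes around the complexes were compared by lists. Of the 37 nuclear complex I subunits, 34 were called higher and 1 lower (NDUFC2, -0.34), their median was 0.58 on the log2 scale, with a ratio of summed TPM of 1.27. For complex I with TPM as deposited, 25 were called higher and 2 lower, with a median of 0.34, and the groups overlapped in 10. All 6 mitochondrial genome partners of complexes III to V were called higher after scaling, led by MT-CYB (0.75), MT-CO2 (0.63) and MT-ATP6 (0.47), with a median of 0.37. With TPM as deposited, 3 of the 6 were called higher and 1 lower. Of the further complex V subunits, ATP5MK (0.56) and ATP5MJ (0.43) were called higher and DMAC2L was not called (adjusted p = 0.676).

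The assembly factors did not move as one with the subunits they serve. Of 41 such genes, 21 were called higher (51.2%), 4 lower and 16 were not called, and their median was 0.28. Among all genes tested, 28.5% were called higher and 25.9% lower. Most assembly factors were less abundant than most members, and the part of abundance in this difference was not tested. COX14 (1.37) and UQCC1 (1.11), which attend the early steps of complexes IV and III, passed 2-fold. UQCC3 (0.99), COA6 (0.98), COX10 (0.93), COA7 (0.89), SDHAF2 (0.79) and SDHAF1 (0.64) were higher as well. Those called lower were TTC19 (-0.56), which clears Rieske protein fragments from complex III, ATPAF2 (-0.34), COX15 (-0.27) and CMC2 (-0.14). With TPM as deposited the median of the assembly factors was 0.04, and 15 were called higher and 10 lower. All genes tested then had a median of -0.20, with 16.3% called higher and 40.3% lower.

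Of the regulators of mitochondrial biogenesis, 8 of the 10 tested were called higher. The nuclear receptor ESRRA had a log2 fold change of 1.10 (limma adjusted p = 2.9e-06), the coactivator PPARGC1B 1.04 (adjusted p = 5.47e-05), TFB2M 0.61 and GABPA 0.58. NRF1 was flat in raw TPM, at means of 9.92 in shCtrl and 9.93 in KD, with a log2 fold change of 0.23 (adjusted p = 0.0487). GABPB1 (14.2 to 10.8 TPM, -0.13, adjusted p = 0.280) and YY1 (0.06, adjusted p = 0.387) were not called, and every KD library of GABPB1 was below every shCtrl library. In raw TPM that order held for 44.9% of all genes tested. Exons of GABPA (8.59 to 11.3 TPM) overlap those of the far more abundant member ATP5PF (223 to 290.1 TPM, 0.62) on the opposite strand. Reads within the shared stretch cannot be told apart without the strand, so the level of GABPA is uncertain. The length of the overlap was not computed. With TPM as deposited, 6 of the regulators were called higher and 2 lower, and their median went from 0.45 to 0.21. PPARGC1A was at or near 0 in every library, with at most 0.01 TPM. Of 13 tricarboxylic acid cycle genes, 9 were called higher and 2 lower (DLST and SUCLG2), with a median of 0.32; with TPM as deposited, 6 were called higher and 4 lower, with a median of 0.08. SUCLG1 (1.25) and IDH3A (1.06) passed 2-fold, although IDH3A was uneven in KD, at 97.7, 45.0 and 56.7 TPM.

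**Figure D5:**
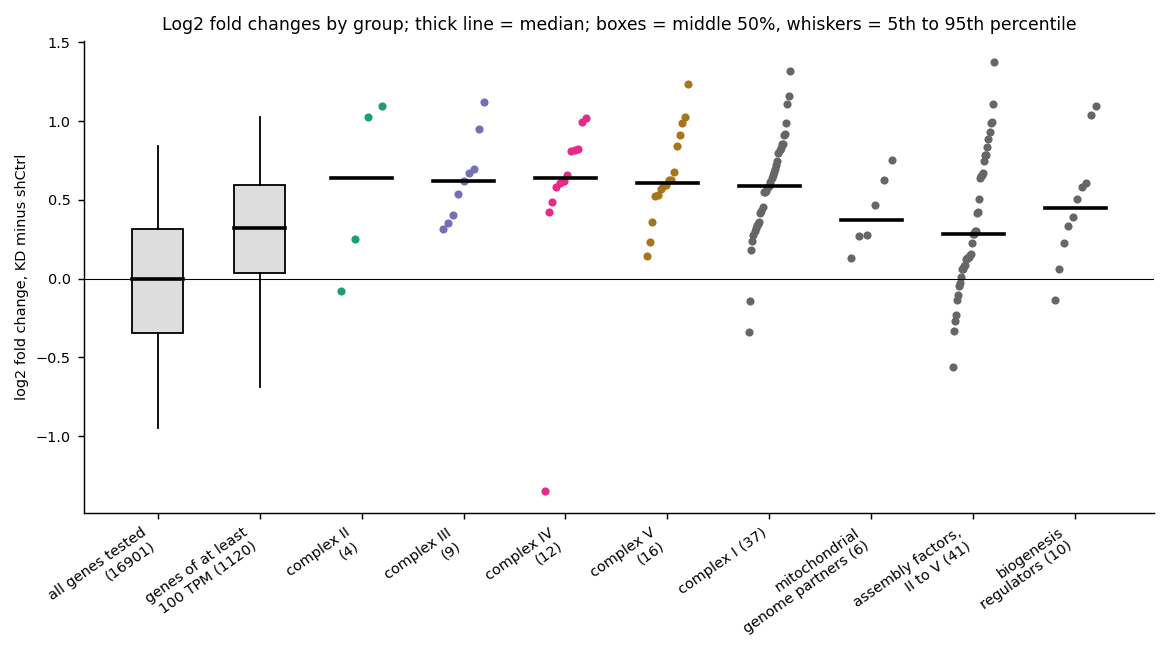
Log2 fold changes of the members by complex beside all genes tested, genes of at least 100 TPM and the compared lists; points are genes, thick lines medians, boxes the middle 50% and whiskers the 5th to 95th percentile. The 4 complexes have medians from 0.61 to 0.64, against 0.32 for genes of at least 100 TPM and 0.28 for assembly factors.

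Promoters are shown because the members rose together and because 2 factors are textbook regulators of respiratory genes. NRF1 binds a GC-rich palindrome, searched here as GCGCA followed by any base and GCGC, and GABP binds the ETS core CCGGAAG. RefSeq promoter windows (GRCh38.p14, 250 bases before to 50 after the start site, 1 per gene) matched 32 of the 41 members. The other 9 (ATP5F1B, ATP5F1D, ATP5MC3, ATP5MF, COX6C, CYC1, NDUFA4, SDHC and UQCRB) had no window and were not searched. Among them are the members below 0 (NDUFA4 and SDHC), the smallest rises (ATP5F1B and ATP5F1D) and the largest (ATP5MC3). On either strand, the NRF1 motif was found in 9 of the 32 windows (28.1%), against 6.28% of 27305 promoters and 11.4% of the 11046 promoters of genes tested. The ETS core was found in 14 (43.8%), against 10.7% and 18.8%, and 3 windows (ATP5ME, SDHD and UQCR11) held both motifs. AAGATGGCG, a YY1 motif, and TGACGTCA, the cAMP response element, were each found in 3 (9.38%), against 3.85% and 3.28% of the promoters of genes tested.

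By complex the windows were few, and no test between complexes was made. The NRF1 motif was found in 2 of 3 windows of complex II, 4 of 7 of complex III, 0 of 10 of complex IV and 3 of 12 of complex V. NDUFA4 and COX6C of complex IV had no window. The ETS core was found in 2 of 3, 3 of 7, 5 of 10 and 4 of 12. Windows of 40 bases around the match are given for members with a large rise, each read 5′ to 3′ on the strand of its gene, with the motif in capitals (CTTCCGG is the ETS core on the opposite strand).
SDHB, ETS core 128 bases before the start site, chr1:17054137-17054176, minus strand: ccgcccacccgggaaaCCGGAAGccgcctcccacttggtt
SDHD, NRF1 motif 110 bases before the start site, chr11:112086748-112086787, plus strand: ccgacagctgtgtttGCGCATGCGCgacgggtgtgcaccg
SDHD, ETS core 77 bases before the start site, chr11:112086780-112086819, plus strand: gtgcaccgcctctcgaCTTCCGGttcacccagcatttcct
UQCR10, NRF1 motif 8 bases before the start site, chr22:29767346-29767385, plus strand: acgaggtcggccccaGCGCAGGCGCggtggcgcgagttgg
ATP5F1C, NRF1 motif 22 bases before the start site, chr10:7788140-7788179, plus strand: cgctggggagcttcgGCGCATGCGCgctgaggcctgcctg
COX6A1, ETS core 16 bases before the start site, chr12:120438081-120438120, plus strand: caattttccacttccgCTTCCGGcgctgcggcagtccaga

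The distances above are to the RefSeq start sites. In GENCODE v29, the genes SDHB, SDHD, ATP5F1C and COX6A1 start farther upstream. By that annotation the printed matches of SDHB, ATP5F1C and COX6A1 and the ETS match of SDHD lie inside the gene. A match is a description of the letters. SDHA (0.25), UQCR11 (0.35) and UQCRC1 (0.40), which are among the members with the smallest rise, also held the NRF1 motif. COX7B (1.02), ATP5PB (1.03) and UQCRC2 (0.95), among those with the largest, held neither the NRF1 motif nor the ETS core within the window.

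The hairpin is shown because the KD group rests on it. Its strands, with bases 2 to 8 of each in capitals, are these.
shRNA2 antisense strand: tTACCATCtatctgtggtctt
shRNA2 sense strand: aAGACCACagatagatggtaa
In the 3′ UTR of 1 annotated transcript per gene (the principal one, then the longest), the 7 bases that pair with the antisense strand, GATGGTA, occurred in 3 of the 41 members (ATP5F1E, ATP5MC3 and UQCRB) and in 6.49% of 13015 protein-coding genes tested. The 7 bases that pair with the sense strand, GTGGTCT, occurred in 3 members (ATP5F1A, SDHC and UQCRB) and in 9.43% of genes. NDUFA4 held neither. The median log2 fold change of all genes with the antisense match was -0.07, and that of genes without it 0.02. For the sense match the medians were likewise -0.07 and 0.02. Differences in length between genes with and without a match were not taken into account. The members with a match had long annotated 3′ UTRs. These were 12907 bases in SDHC, 5135 in UQCRB, 4034 in ATP5F1A, 3378 in ATP5F1E and 2030 in ATP5MC3. Among members without a match the longest was 2227 bases (UQCRFS1), and NDUFA4 had 1685. Whether the cells use these annotated forms was not tested.

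Annotation set further limits on single members. Exons of 21 of the 41 genes overlap those of another annotated gene, 15 of them on the opposite strand, among them SDHC (chr1:161314257-161375340, with CFAP126), SDHD (with TIMM8B) and ATP5F1A (with HAUS1). The library kit is not stated to keep the strand, and without it reads within the shared stretch of such pairs cannot be told apart. On the same strand, 10 members overlap another gene, among them ATP5MF (with PTCD1) and ATP5MC3 (with RF00019). There the strand would not part the reads either. The lengths of the overlaps were not computed. ATP5F1B (chr12:56638175-56646068), like NDUFA4, overlaps no other gene. For 28 members the annotation names pseudogene copies with a value, 105 in all, and these held over 5% of the TPM of gene and copies in shCtrl only for SDHA and UQCRFS1 (7.74%).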

How the data were processed

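Poly-A selected RNA of 3 shCtrl and 3 GMDS-AS1 KD libraries was read in pairs. The deposited values are TPM per Ensembl gene and library, for which the authors' methods name Cufflinks and RSEM; the submitters' processing notes list Trimmomatic 0.27, TopHat2 2.1.1 and the build GRCh38.p13. The annotation release is not given in the sources used here. Lines of 2 genes hold no value and were left out.

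A gene was tested where 3 or more libraries had 0.5 TPM or more, which held for 16901. TPM were scaled by a trimmed mean of log ratios (30% and 5% trimmed, unweighted), and log2(scaled TPM + 1) was compared by limma 3.58.1 (R 4.3.3; group as the only term, variance trend on) and Benjamini-Hochberg adjustment over all genes at 0.05. With a pseudocount of 1, fold changes of low genes are understated. On simulated data with 200 of 16901 genes changed, 197 were called at 2-fold, as were 4 unchanged genes. p-values set the group difference against the spread between libraries within a group, moderated over all genes. They hold no spread between hairpins or cell lines.

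The members, gene lists and rules were chosen with earlier results of these data known, and NDUFA4 relatives and pseudogene copies were added after the values were seen. Values in every library are printed for the 3 largest changes of each complex, members below 0 or not called, the ATP5MC genes, NDUFA4, COX7A2L and the most and least abundant gene of each complex; ATP5F1A, ATP5F1B and ATP5F1D were added after their values were seen. Of other lists at most 4 genes by size of change are named, apart from those called lower or near 0, isoforms, markers and the regulators NRF1, GABPB1 and YY1. Alternatives covered scaling, pseudocount, filter, trend, replicate block and leaving out each library. Gene positions are from GENCODE v29 (GRCh38), promoters from RefSeq. Tables and plots were made in Python 3.11.15 (pandas 2.3.3, numpy 2.4.6, matplotlib 3.10.9).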

Additional observations from a re-analysis of the deposited data

How the results depend on the processing

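With TPM as deposited, 3 members were called lower and 0 were called at least 2-fold higher (ATP5MC3 came nearest, at 0.99); the medians were 0.39 (complex II), 0.38 (III), 0.39 (IV) and 0.36 (V), and ATP5F1B (-0.10) and ATP5F1D (-0.016) turned negative. With upper-quartile scaling, 2 members were called lower and 3 at least 2-fold higher, with medians of 0.55, 0.53, 0.55 and 0.52. Median-of-ratios scaling gave a complex II median of 0.63, and no filter gave 0.67. A filter of 1 TPM in every library left 3 members at least 2-fold higher and medians of 0.59 (II), 0.59 (IV) and 0.56 (V). Without 1 library at a time the result was 0.60 to 0.65 for complex II and 1 to 2 members called lower, the second being SDHC without KD replicate 2. The scalings shift all genes together by construction; for the other settings the cause was not tested. NDUFA4 stayed lower in all 14 alternatives. Over the 14 alternatives ATP5F1D was not called in 12, ATP5F1B in 1, and SDHA, UQCRQ and ATP5F1E in 1 each. With the replicate number as a block, 38 members were called higher and 1 lower, the lost call being ATP5F1D (adjusted p = 0.0668); same-numbered libraries did not deviate together (correlations of 0.03, -0.04 and 0.01), so the numbers were not taken as pairs. Depth is unknown, so the counting error behind small changes such as that of SDHC cannot be given.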
